A study of Homo sapiens with 6 samples.

Results

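The RNA levels of 50 genes of DNA replication and the G1/S transition were compared between 2 groups of SH-SY5Y cells, a human neuroblastoma cell line. The genes were taken by name from the deposited table, which lists 60612 genes, and all 50 were found on a single row each. They encode the proteins that license replication origins, unwind and copy DNA, supply deoxynucleotides, assemble new chromatin and drive entry into S phase. In the control group, 3 libraries came from cells infected with a control vector and are titled stuffer. In the other, 3 libraries came from cells labelled as overexpressing CDKN2B-AS1 and are titled CDKN2B-AS1 OE. CDKN2B-AS1 is a noncoding RNA read from the strand opposite the cell cycle inhibitor gene CDKN2B. The groups are called stuffer and OE-labelled below. How the overexpression was delivered, the promoter, the dose and the time of collection are not given in the sources used here. A tag in the column names, LVx1 in stuffer and LVx2 in OE-labelled libraries, is explained by no label, and what it marks cannot be told apart from the group. Whether replicates are separate cultures is not stated, so the p-values rest on a spread that may be technical.

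Eukaryotic replication starts when the origin recognition complex, CDC6 and CDT1 load the ring of MCM2 to MCM7 onto DNA in G1. Cyclin-dependent and DBF4-dependent kinases then convert that ring into the active helicase, with CDC45 and the GINS complex as partners. DNA polymerases alpha, delta and epsilon, the sliding clamp PCNA and its loader RFC copy the strands, and many of the genes are transcribed under E2F transcription factors, which the retinoblastoma protein holds back before S phase. Neuroblastoma lines proliferate in culture, and SH-SY5Y expresses this machinery in its cycling cells. In RNA from whole cultures, more cells in S phase and more RNA per cell cannot be told apart.

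Levels are in FPKM, which divides fragments by gene length and library total. The depth that could be recovered from the values ran from 20466583 to 48996425 fragments per library. For CDKN2B-AS1 itself the ratio of means was 1.33: its stuffer libraries held 0.272, 0.288 and 0.191 FPKM and its OE-labelled libraries 0.338, 0.304 and 0.353, with p = 0.1 in a two-sided exact permutation test, the smallest that 3 against 3 allows. CDKN2B-AS1 lay below the filter of 1 FPKM in 3 libraries and is not among the tested genes. Added to that fit as 1 more gene it did not pass (limma-trend adjusted p = 0.834), nor with no filter (0.683). Whether its row counts the isoform that was overexpressed is stated by no label and was not tested, so the ratio may not measure the overexpression. Each direction below is between libraries as labelled. On the second principal component stuffer replicate 3 lay at -40.6 and the other libraries between -4.86 and 17.8. Of 15 neuroblastoma markers 14 were tested, with 1 higher (NEFM), and DBH, ISL1 and HAND2 were present in every library while TH was at or near 0. Of the markers of other cell types, 4 of 7 fibroblast genes, 0 of 5 immune, 0 of 5 epithelial and 1 of 5 Schwann and glial genes were high enough to test, and 0 of those 5 tested genes passed. Summed fibroblast markers ran from 26.6 to 40.3 FPKM in stuffer and from 29.8 to 40.1 FPKM in OE-labelled libraries, with POSTN at 0 in all 6.

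RRM1, the large subunit of ribonucleotide reductase, and FEN1, the flap endonuclease that trims Okazaki fragments, rose in the OE-labelled libraries, 1.5-fold and 1.4-fold. They were the 2 of 50 genes that passed an adjusted p of 0.05 in limma-trend on log2(FPKM + 0.5) with Benjamini-Hochberg adjustment over 13984 tested genes. The upward calls were 4% of the 50 and 0 genes were called lower, where 0.529% of all tested genes were called higher and 0.608% lower, 1.14% in either direction. With the libraries rescaled to a common FPKM total the calls over all genes were 181 higher and 52 lower, and with median-of-ratios scaling 59 and 119, against 74 and 85 on the values as deposited. The other 48 did not pass. When any 1 library was left out neither gene passed, and 0 of the 50 passed in each of those 6 limma-trend fits. In these fits 9 to 17 of the 50 were higher and 2 to 5 lower at an unadjusted p under 0.05. Over all 13984 tested genes 1665 to 2826 were under that p in either direction. Both calls were also lost with no filter and with no variance trend.

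Log2 fold changes, given as OE-labelled minus stuffer, were above 0 in 37 genes and below 0 in 13, with a median of 0.19 against 0.05 over all tested genes, of which 56.8% were above 0. When the libraries were rescaled to a common FPKM total, the median of all tested genes shifted by 0.10, to 0.15. That of the 50 became 0.29, and 42 of the 50 were above 0. All members of origin licensing (5), MCM2-7 (6), nucleotide supply (4), chromatin assembly (3) and the G1/S regulators (5) had values above 0. The clamp and clamp loader (median -0.13, 1 of 6 above 0) and the RPA genes (median -0.18, 1 of 3 above 0) lay mostly below 0. With the common total these medians were -0.02 (2 of 6 above 0) and -0.07 (1 of 3), where that of all tested genes was 0.15. With median-of-ratios scaling they were -0.18 and -0.22, where that of all tested genes was 0.01. In 16 genes, 32% of the 50, all OE-labelled libraries lay above all stuffer libraries, against 14.2% of all tested genes. In 5 genes, 10%, they lay below, against 9.9%, so the share that lay lower was that of the background. CCNE1, which the filter let through only by its OE-labelled values, is among the 37 and the 16. Without it 36 of 49 were above 0 and 15, 30.6%, lay apart upward. At an unadjusted limma-trend p under 0.05 there were 15 genes higher and 4 lower, 30% and 8% of the 50, against 10.4% and 7.34% of all tested genes. With the common total they were 17 and 1, and the shares just given do not apply to these counts. Genes under that p in either direction went from 2477 of 13984 to 2877 of 13995 with that scaling.

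**Figure D1:**
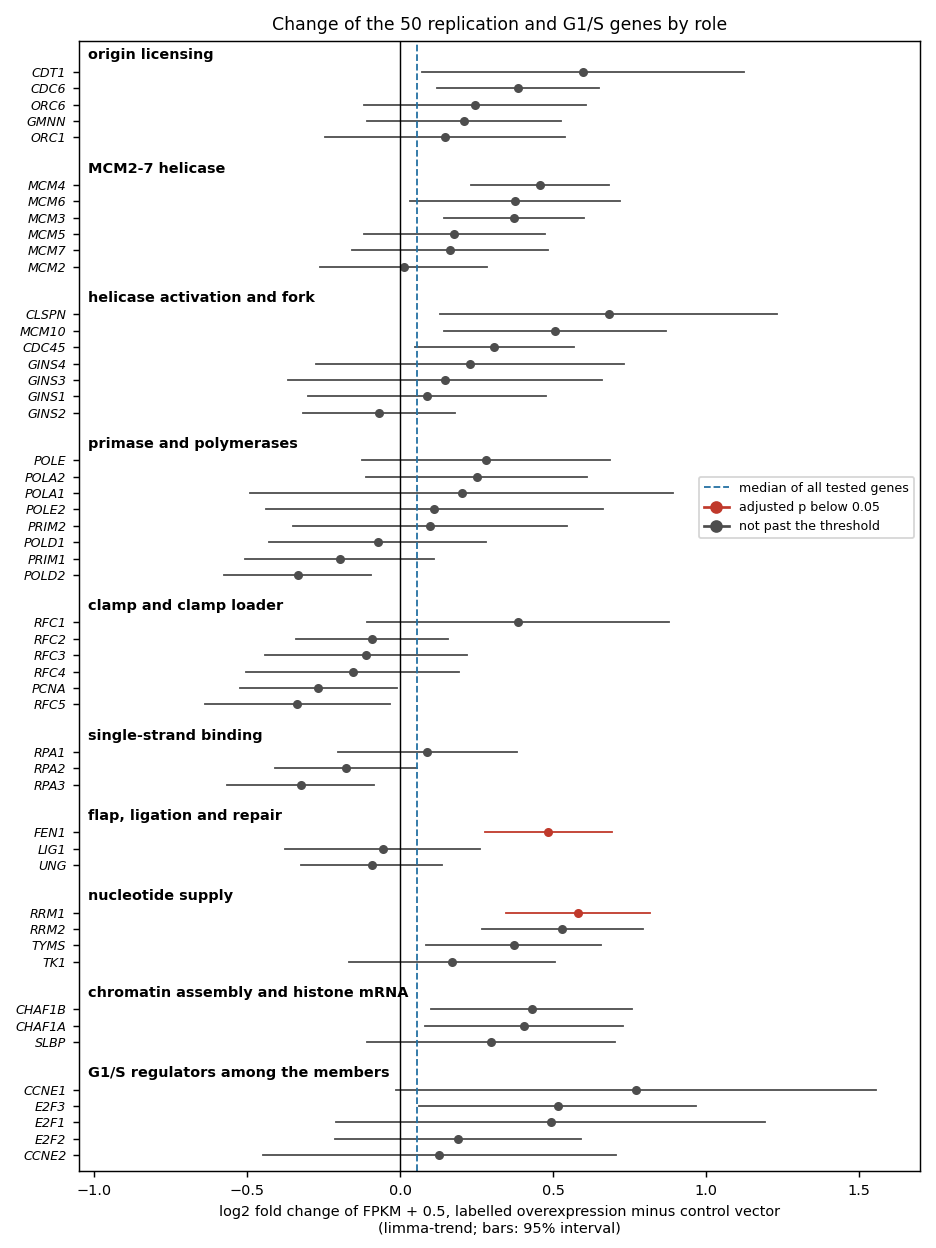
Log2 fold change of FPKM + 0.5 (x axis, OE-labelled minus stuffer, limma-trend) for each of the 50 genes, grouped by role (labelled overexpression in the picture is the OE-labelled group and control vector the stuffer group), with 95% intervals (bars), the 2 genes past the adjusted threshold in red and the median of all tested genes, 0.05, as a dashed line. Intervals of RRM1 (0.35 to 0.81) and FEN1 (0.28 to 0.69) lie above that line. So do those of some genes that did not pass, such as RRM2 (0.27 to 0.79) and MCM4 (0.23 to 0.68). In contrast, 5 of 6 clamp and clamp loader genes have point values below 0.

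All 50 genes passed the filter of at least 1 FPKM in at least 3 of the 6 libraries. CCNE1 passed it only through the OE-labelled group, since its stuffer libraries lay below 1 FPKM, and so had to differ in that direction. The median of the other 49 was 0.19. Summed over the 50 genes, levels were 2403, 2397 and 2321 FPKM in stuffer replicates 1, 2 and 3 and 2570.2, 2585 and 2507 FPKM in OE-labelled replicates 1, 2 and 3. The OE-labelled sums lay above all 3 stuffer sums. As a share of all FPKM of a library the sum ran from 0.599% to 0.626% in stuffer and from 0.704% to 0.717% in OE-labelled libraries. Total FPKM per library also separated the groups, at 381310 to 400215 against 349703 to 365333.

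The promoters of RRM1 and FEN1, the called genes, and of MCM2, the gene whose level differed least, are shown with their E2F motifs. They were picked by their results, so differences between them cannot show whether the motifs go with the change. Each stretch runs from 250 bases before to 20 bases after the RefSeq start site (GRCh38.p14, plus strand) and is printed 5′ to 3′ in lower case. Capitals mark the octamers TTTCCCGC, TTTCGCGC, TTTGCCGC and TTTGGCGC, the letters of the E2F consensus, and the CCAAT box (CCAAT), each on either strand. RRM1 lies at chr11:4094435-4094704, FEN1 at chr11:61792661-61792930 and MCM2 at chr3:127598161-127598430.
RRM1: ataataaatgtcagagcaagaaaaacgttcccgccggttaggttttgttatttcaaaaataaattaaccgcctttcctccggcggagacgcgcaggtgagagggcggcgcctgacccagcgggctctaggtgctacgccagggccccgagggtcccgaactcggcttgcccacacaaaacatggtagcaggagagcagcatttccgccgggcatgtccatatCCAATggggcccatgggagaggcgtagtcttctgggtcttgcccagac
FEN1: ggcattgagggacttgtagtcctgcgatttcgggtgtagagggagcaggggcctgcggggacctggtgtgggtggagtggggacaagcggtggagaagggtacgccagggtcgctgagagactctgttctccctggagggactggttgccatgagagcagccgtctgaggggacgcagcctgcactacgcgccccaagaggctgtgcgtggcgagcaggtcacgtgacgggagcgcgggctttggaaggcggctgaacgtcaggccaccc
MCM2: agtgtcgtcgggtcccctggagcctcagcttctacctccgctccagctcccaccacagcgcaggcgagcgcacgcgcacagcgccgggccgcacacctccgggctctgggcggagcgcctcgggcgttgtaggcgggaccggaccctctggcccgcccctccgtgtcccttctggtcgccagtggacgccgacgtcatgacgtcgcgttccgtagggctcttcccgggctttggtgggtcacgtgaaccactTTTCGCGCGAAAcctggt
MCM2 holds a pair of overlapping E2F octamers on opposite strands just after its start, RRM1 holds a CCAAT box 28 bases before its start, and FEN1 holds neither in this window. Of the 50 genes 44 had RefSeq promoter entries, 56 in all. An E2F octamer stood within the 300 bases from 250 before to 50 after the start in 23 of these 56 promoters, 41.1%, against 3.31% of the 35116 promoters in the table. The CCAAT box was in 58.9% of the 56 and 34.6% of all, and the GC box (GGGCGG) in 76.8% and 44.95%. The cell cycle homology region motif CHR (TTTGAA) was in 5.36% and 15.2%. All were searched on both strands. By gene, the 23 with an octamer had a median log2 fold change of 0.20, and the 21 without it 0.25. The 21 include CCNE1, at 0.77, which the filter let through only by its OE-labelled values. The difference between these medians was not tested. MCM2, picked for its small change, stood at 0.01 with a pair of octamers. The other genes with at least 2 octamers in a promoter were MCM3, MCM6, MCM7 and E2F1. These had 0.37, 0.37, 0.16 and 0.49. A match describes letters in this window and is not a binding site.

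RRM1 (ENSG00000167325, chromosome 11, 4094707 to 4138932, plus strand in the table) forms with RRM2 the enzyme that makes deoxynucleotides from ribonucleotides. It stood at 53.5, 46.8 and 51.5 FPKM in stuffer replicates 1, 2 and 3 and at 74.2, 71.8 and 81.8 FPKM in OE-labelled replicates 1, 2 and 3. The lowest OE-labelled library was 18.3 FPKM above the highest control, a gap wider than the range within either group. Group means were 50.6 ± 3.44 and 75.9 ± 5.22 FPKM (SD, n = 3 each), with a log2 fold change of 0.58 (SE 0.10, limma-trend adjusted p = 0.0390). It kept values of 0.53 to 0.69 over 17 alternatives. The antisense RRM1-AS1, which shares 63 exon bases with RRM1 on the other strand, also passed, at 0.56 (limma-trend adjusted p = 0.0380). With the strand setting of the counting unknown, reads within these 63 bases cannot be told apart between the genes. This uncertainty does not extend to reads in the rest of the 4233 exon bases of RRM1. The fragments of RRM1-AS1 came to 0.0592 of those of RRM1.

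The small subunit RRM2, whose level limits ribonucleotide reductase outside S phase, stood at 49.3, 48.6 and 58.3 FPKM in the controls and 72.9, 69.4 and 84.0 FPKM in OE-labelled replicates 1, 2 and 3. The groups did not overlap, with replicate 3 the highest in both. The ratio of means was 1.45 and the log2 fold change 0.53 (95% interval 0.27 to 0.79, limma-trend adjusted p = 0.0672), so RRM2 did not pass. It passed under 3 of 17 alternatives. Per length, the subunits were nearly level with each other: RRM1 made up 46.9% to 52.0% of the summed FPKM of the pair in stuffer and 49.3% to 50.9% in OE-labelled libraries. Their sum went from 95.4 to 109.8 FPKM in controls to 141 to 166 FPKM in OE-labelled libraries, without overlap. Comparisons of level between genes rest on the length in the table, the merged length of all annotated exons, which lowers the FPKM of a gene with long minor transcripts.

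TYMS, thymidylate synthase, stood at 47.6, 52.2 and 64.7 FPKM in the controls and 72.7, 73.3 and 65.6 FPKM in OE-labelled replicates 1, 2 and 3. Stuffer replicate 3 came within 0.965 FPKM of OE-labelled replicate 3, and the log2 fold change of 0.37 did not pass (95% interval 0.08 to 0.66, limma-trend adjusted p = 0.180). ENOSF1, on the other strand, shares 967 exon bases with TYMS and had 0.802 times its fragments and a log2 fold change of 0.32, so their values were not separable. TK1, the thymidine kinase of the salvage pathway, overlapped between the groups at 149 to 216 against 173 to 226 FPKM. All 4 genes of nucleotide supply had values above 0 under each of the 17 alternatives.

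**Figure D2:**
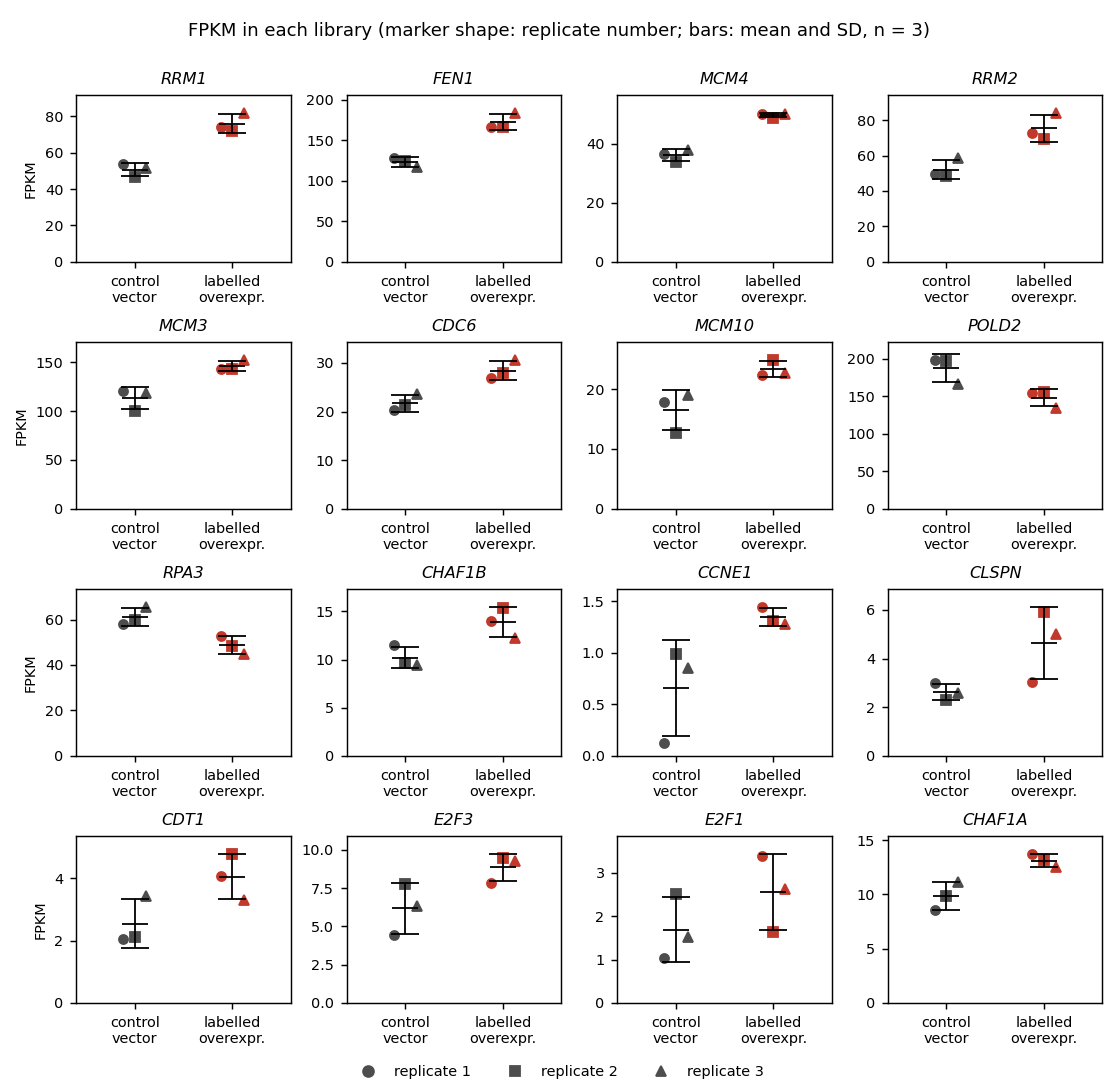
FPKM (y axis, from 0) in the 3 stuffer (grey) and 3 OE-labelled (red) libraries for the 10 genes of smallest p and the 12 of largest change, 16 genes in all, with marker shape for the replicate number and bars for the mean and SD. The groups are apart for RRM1, at 46.8 to 53.5 against 71.8 to 81.8 FPKM, whereas E2F1 and CDT1 overlap.

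FEN1 (ENSG00000168496, chromosome 11, 61792911 to 61797238, plus strand) stood at 128, 124 and 116 FPKM in stuffer replicates 1, 2 and 3 and at 166, 166 and 183 FPKM in the OE-labelled replicates. The groups were 37.9 FPKM apart at their nearest libraries. Means were 123 ± 5.92 and 172 ± 9.98 FPKM (SD, n = 3 each), with a log2 fold change of 0.48 (SE 0.09, limma-trend adjusted p = 0.0443). FEN1 did not pass with median-of-ratios scaling (limma-trend adjusted p = 0.0592), with no filter (0.154) or with no variance trend (0.182). FADS2 shares 49 exon bases with FEN1 on the same strand, and had 1.34 times its fragments and a log2 fold change of -0.15. The part of the shared bases in the value of FEN1 was not tested. The pseudogene FEN1P1 held 0.0889% of the fragments of FEN1. LIG1, the ligase that seals the nick FEN1 leaves, stood at 17.2 ± 2.47 against 16.4 ± 1.19 FPKM, and UNG, which removes uracil from DNA, at 54.9 ± 1.83 against 51.5 ± 3.83 FPKM (SD, n = 3 each). Neither LIG1 (95% interval -0.38 to 0.26) nor UNG (-0.32 to 0.14) passed. With the libraries rescaled to a common total both had values above 0, 0.05 and 0.02, where the median of all tested genes was 0.15.

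All 5 origin licensing genes had values above 0 and 0 passed. CDC6, the loader that recruits the helicase ring, stood at 20.3, 21.3 and 23.5 FPKM in stuffer replicates 1, 2 and 3 and 26.8, 27.9 and 30.6 FPKM in OE-labelled replicates 1, 2 and 3. The groups did not overlap, and the log2 fold change was 0.38 (95% interval 0.12 to 0.65, limma-trend adjusted p = 0.150). CDT1, its partner in loading, was low, at 2.06, 2.13 and 3.45 FPKM against 4.07, 4.78 and 3.32 FPKM. Stuffer replicate 3 exceeded OE-labelled replicate 3, and the 95% interval of the log2 fold change of 0.60 ran from 0.072 to 1.124. GMNN, the protein that binds and blocks CDT1, had 0.21, and the origin recognition subunits ORC1 and ORC6 had 0.15 and 0.25, all with overlapping groups. ORC1 turned to -0.03 without stuffer replicate 1.

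Of the 6 MCM2-7 subunits 0 passed. In 3 of them, MCM3, MCM4 and MCM6, the groups did not overlap, all upward, where 14.2% of all tested genes did so. MCM4, one of the subunits with intrinsic helicase activity in a complex with MCM6 and MCM7, stood at 36.7, 33.8 and 37.8 FPKM in stuffer replicates 1, 2 and 3 and 50.1, 48.8 and 50.2 FPKM in OE-labelled replicates 1, 2 and 3. Its OE-labelled libraries were within 1.32 FPKM of each other and at least 11.0 FPKM above every control. The ratio of means was 1.38 and the log2 fold change 0.46 (95% interval 0.23 to 0.68, limma-trend adjusted p = 0.0667).

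MCM3 stood at 121, 99.98 and 119 FPKM in the controls and 143, 143 and 152 FPKM in OE-labelled libraries, with a log2 fold change of 0.37 (limma-trend adjusted p = 0.118). MCM6 stood at 36.8, 30.9 and 41.3 FPKM and at 41.5, 43.6 and 57.3 FPKM, with a log2 fold change of 0.37 that did not pass (limma-trend adjusted p = 0.246). Its groups were apart by a small margin, 0.198 FPKM, and replicate 3 was the highest in both groups.

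The other helicase subunits overlapped between the groups. MCM2 stood at 83.7, 96.8 and 73.1 FPKM in controls and 90.4, 86.0 and 77.9 FPKM in OE-labelled libraries, with a log2 fold change of 0.01 (95% interval -0.26 to 0.28). The antisense RP11-427I6.5 shares 1113 exon bases with MCM2 and had 0.265 times its fragments, so the value of MCM2 is uncertain. MCM5 stood at 41.4, 39.2 and 30.6 FPKM against 43.5, 42.4 and 39.2 FPKM, and MCM7 at 360.1, 383 and 293 FPKM against 392.2, 452 and 319.6 FPKM. For all of these replicate 3 was the lowest of its group in both groups. The difference between subunits was not tested. MCM7 alone made up 49.3% to 56.0% of the summed FPKM of the 6 subunits in stuffer and 45.9% to 55.4% in OE-labelled libraries, although the proteins sit in the ring in equal numbers. MCM2-7 summed to 594 to 684 FPKM and 696 to 816 FPKM, without overlap, also as a share of total FPKM (0.156% to 0.177% against 0.199% to 0.225%).

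Of the 7 genes that activate the helicase or act at the fork 0 passed. In 3 of them the groups did not overlap, all upward, where 14.2% of all tested genes did so. MCM10, needed for the helicase to start unwinding, stood at 17.9, 12.6 and 19.0 FPKM in controls and 22.4, 24.9 and 22.7 FPKM in OE-labelled libraries. Stuffer replicate 2 was 5.29 FPKM below the next control, and the log2 fold change was 0.50 (95% interval 0.14 to 0.87, limma-trend adjusted p = 0.158). CLSPN, the claspin adaptor of the replication checkpoint, stood at 2.99, 2.31 and 2.56 FPKM against 3.02, 5.90 and 5.003 FPKM. OE-labelled replicate 1 was 0.0315 FPKM above the highest control, and the log2 fold change of 0.68 had a 95% interval of 0.13 to 1.23.

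CDC45, which joins the helicase with GINS, stood at 41.5, 36.3 and 32.9 FPKM against 45.3, 47.3 and 44.2 FPKM, without overlap, and its log2 fold change of 0.31 had a 95% interval of 0.05 to 0.57. The GINS genes overlapped between groups and differed little, with GINS1, GINS2, GINS3 and GINS4 at 0.09, -0.07, 0.15 and 0.23. GINS2 had 0.04 with the libraries rescaled to a common total. Although the complex holds equal numbers of each protein, GINS2 made up 61.0% to 70.6% of the summed FPKM of the 4 genes across the 6 libraries and GINS4 2.22% to 3.69%. The antisense RP11-360L9.4 and RP11-360L9.7 share 131 and 1145 exon bases with GINS4 and had 3.69 and 0.403 times its fragments. The level of GINS4 is therefore uncertain.

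Among the polymerase and primase genes 0 of 8 passed, 5 had values above 0 and 3 below. POLD2, the accessory subunit of polymerase delta, stood at 198, 197 and 166 FPKM in stuffer replicates 1, 2 and 3 and 154, 156 and 135 FPKM in OE-labelled replicates 1, 2 and 3. All its OE-labelled libraries lay below all its controls, and the log2 fold change was -0.33 (95% interval -0.57 to -0.09, limma-trend adjusted p = 0.158). The catalytic subunit of the same enzyme, POLD1, overlapped between groups at 23.2 to 35.0 against 27.3 to 29.8 FPKM, and its value changed sign with the scaling, from -0.07 to 0.04 with the libraries rescaled to a common total.

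For polymerase epsilon, the leading-strand enzyme, the catalytic POLE stood at 3.17, 3.42 and 3.11 FPKM against 3.55, 4.54 and 4.07 FPKM. Its groups were apart, but the 95% interval of the log2 fold change of 0.28 ran from -0.12 to 0.69. POLE2, its second subunit, had 0.11. In the polymerase alpha and primase complex that starts each new strand, POLA1, POLA2 and PRIM2 had 0.20, 0.25 and 0.10 and PRIM1 had -0.20, and all overlapped between groups. POLA1 stood at 1.05, 1.31 and 2.78 FPKM in stuffer replicates 1, 2 and 3, so its highest library was a control. POLA2 shares 2012 exon bases with RP11-867O8.9 on the same strand. PRIM1 shares 362 with RP11-112B10.2, which had 3.28 times its fragments, and 139 with NACA, which had 12.2 times its fragments. The values of POLA2 and PRIM1 are therefore uncertain.

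Of the 6 genes of the clamp and its loader 0 passed, and 5 had values below 0. PCNA, the sliding clamp that holds polymerases on DNA, stood at 176, 169.8 and 213 FPKM in stuffer replicates 1, 2 and 3 and 145, 148 and 169.7 FPKM in OE-labelled replicates 1, 2 and 3. The nearest libraries differed by 0.114 FPKM, so the groups were only just apart, and the log2 fold change was -0.27 (95% interval -0.52 to -0.01, limma-trend adjusted p = 0.263). RFC5, a small loader subunit, stood at 29.1, 24.1 and 23.8 FPKM against 18.8, 19.0 and 22.9 FPKM. Its groups did not overlap, and the log2 fold change of -0.34 did not pass (limma-trend adjusted p = 0.241).

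RFC2, RFC3 and RFC4 had -0.09, -0.11 and -0.15, and RFC1, the large subunit, had 0.39, all with overlapping groups. RFC2 turned to 0.02 with the libraries rescaled to a common total. RFC1 made up 1.73% to 3.08% of the summed FPKM of the 5 loader subunits in stuffer and 3.26% to 4.03% in OE-labelled libraries, and RFC2 51.0% to 60.2% across all 6. Summed over the 5 subunits the level was 198 to 204 FPKM in controls and 179 to 191 FPKM in OE-labelled libraries, without overlap. As a share of the total FPKM of each library, which was itself lower in the OE-labelled group, the loader sums overlapped, at 0.0511% to 0.0524% against 0.0492% to 0.0530%. RFC4 shares 18 exon bases with EIF4A2 and RFC5 shares 186 with WSB2, each on the other strand.

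RPA, the trimer that coats single-stranded DNA, had 0 of 3 genes past the threshold. RPA3, its smallest subunit, stood at 58.0, 60.0 and 65.5 FPKM in stuffer replicates 1, 2 and 3 and 52.8, 48.5 and 44.99 FPKM in OE-labelled replicates 1, 2 and 3. The groups did not overlap, and the log2 fold change was -0.33 (95% interval -0.57 to -0.08, limma-trend adjusted p = 0.169). RPA2 also lay lower in all OE-labelled libraries, at 109.5 to 128 against 137 to 142 FPKM, with -0.18. RPA1, the largest, overlapped between groups at 37.9 to 47.1 against 39.9 to 50.6 FPKM, with 0.09. Its share of the summed FPKM of the trimer was 16.1% to 18.5% in controls and 19.1% to 21.9% in OE-labelled libraries.

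All 3 genes of chromatin assembly and histone mRNA had values above 0. CHAF1A and CHAF1B, the large subunits of the CAF-1 histone chaperone, which works with PCNA behind the fork, had log2 fold changes of 0.41 and 0.43. CHAF1A was at 8.52, 9.83 and 11.1 FPKM in stuffer and 13.7, 13.1 and 12.5 FPKM in OE-labelled replicates 1, 2 and 3. CHAF1B was at 11.5, 9.62 and 9.49 FPKM and at 14.1, 15.4 and 12.3 FPKM. Neither gene overlapped between groups, and neither passed (limma-trend adjusted p = 0.193 and 0.179). SLBP, which binds the stem-loop of histone messages, stood at 34.4, 35.9 and 56.4 FPKM in controls and 49.3, 46.7 and 56.4 FPKM in OE-labelled libraries. Stuffer replicate 3, at 56.41 FPKM, was the highest of all 6 but nearly level with OE-labelled replicate 3, at 56.40 FPKM. Without that stuffer library the log2 fold change of SLBP went from 0.30 to 0.52 (limma-trend adjusted p = 0.0760).

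The 5 regulators of S-phase entry were low, between 0.126 and 10.1 FPKM, and 0 passed. CCNE1, an E-type cyclin that activates CDK2, stood at 0.126, 0.993 and 0.852 FPKM in stuffer replicates 1, 2 and 3 and 1.45, 1.31 and 1.29 FPKM in OE-labelled replicates 1, 2 and 3. Its control mean rested on a low replicate 1, which held 14 fragments, and the log2 fold change of 0.77 was 0.38 without that library. CCNE2, the other E-type cyclin, had 0.13, with replicate 3 the highest in both groups at 6.78 and 6.56 FPKM. INTS8, on the other strand, shares 1629 exon bases with CCNE2 and held 2.51 times its fragments, so the value of CCNE2 is uncertain.

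E2F3, an activating E2F, stood at 4.47, 7.75 and 6.30 FPKM against 7.86, 9.48 and 9.25 FPKM. Its groups were apart by 0.114 FPKM, and the log2 fold change was 0.51 (95% interval 0.06 to 0.97, limma-trend adjusted p = 0.230). E2F1, the activator best known for driving replication genes, stood at 1.05, 2.51 and 1.52 FPKM and at 3.40, 1.63 and 2.64 FPKM. Its groups overlapped, and the 95% interval of its log2 fold change of 0.49 ran from -0.21 to 1.19. E2F2, the third activator, had 0.19 with overlapping groups.

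Of 51 other replication genes listed outside the 50, 50 could be tested, 1 was higher, 0 were lower and 49 did not pass, with a median log2 fold change of 0.14. UHRF1, which guides DNA methylation to new strands, was the gene that rose, at 21.4, 25.3 and 24.97 FPKM in stuffer and 42.9, 50.3 and 39.8 FPKM in OE-labelled replicates 1, 2 and 3, with a log2 fold change of 0.88 (limma-trend adjusted p = 0.0280). NASP, a histone chaperone, and WDHD1, a fork protein that binds polymerase alpha, had 0.57 and 0.79, with DNMT1, the maintenance methyltransferase, at 0.52, and did not pass. The 1 call was 2% of the 50 tested, against 0.529% of all tested genes. In 16 of them, 32%, the groups did not overlap upward and in 3, 6%, downward, against 14.2% and 9.9%. The 16 include ATAD5, at 1.17, 0.84 and 0.38 FPKM in stuffer replicates 1, 2 and 3, which passed the filter only with its OE-labelled values.

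Among 24 upstream G1/S regulators, 23 were tested and CCND1, the D-type cyclin that opens the pathway, was the 1 that rose, with 0 lower and a list median of 0.01. That call was 4.35% of the 23, against 0.529% of all tested genes. The groups did not overlap upward in 4, 17.4%, and downward in 1, 4.35%, against 14.2% and 9.9%. CCND1 stood at 54.2, 55.9 and 61.3 FPKM in controls and 119, 154 and 112 FPKM in OE-labelled libraries. E2F7, a repressing E2F, had 1.07, CDK4, the partner kinase of CCND1, had -0.32, and CDC25A, the phosphatase that activates CDK2, had 0.67, without passing. Of 40 mitotic genes, MKI67 was the 1 that rose, 0 fell and 39 did not pass, with a median of 0.10. The call was 2.5% of the 40, against 0.529% of all tested genes. The groups did not overlap upward in 8, 20%, and downward in 3, 7.5%, against the same 14.2% and 9.9%. With the gene length trend removed MKI67 went from 1.13 to 0.94 and did not pass (limma-trend adjusted p = 0.0546). FOXM1, a transcription factor of G2 and mitosis, had 0.54 (limma-trend adjusted p = 0.0564), and MAD2L1, a spindle checkpoint gene, had -0.61 (limma-trend adjusted p = 0.111). UHRF1, CCND1 and MKI67 were the calls of lists that, leaving out 1 library at a time, had 1 call each without stuffer replicate 3 and 0 without any other library. With no filter and with no variance trend each list had 0 calls. The difference between these lists and the 50 genes was not tested.

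Gene length moved with the changes. Across the 50 genes Spearman's rho between length in the table and log2 fold change was 0.25 (Pearson's r = 0.28 on log2 length), and across the 13984 tested genes it was 0.22. These are descriptions across genes of the same 6 libraries. Of the 18 members longer than 5000 bases 17 had values above 0, with a median of 0.27 against 0.13 in all tested genes of that length. The 23 members of 2500 to 5000 bases had a median of 0.11 against 0.04, and the 9 up to 2500 bases had 0.21 against -0.03. With the length trend removed from each library, the median of the 50 was 0.12 against 0.01 over all tested genes. RRM1 and FEN1 then had 0.54 and 0.49 and both passed, RRM2 and MCM4 had 0.38 and 0.34, and PCNA, POLD2, RFC5 and RPA3 stayed below 0. Log2 fold changes ran against the level across the 50 genes, at a Spearman's rho of -0.31 with mean FPKM. The part of length and level in these results was not tested.

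**Figure D3:**
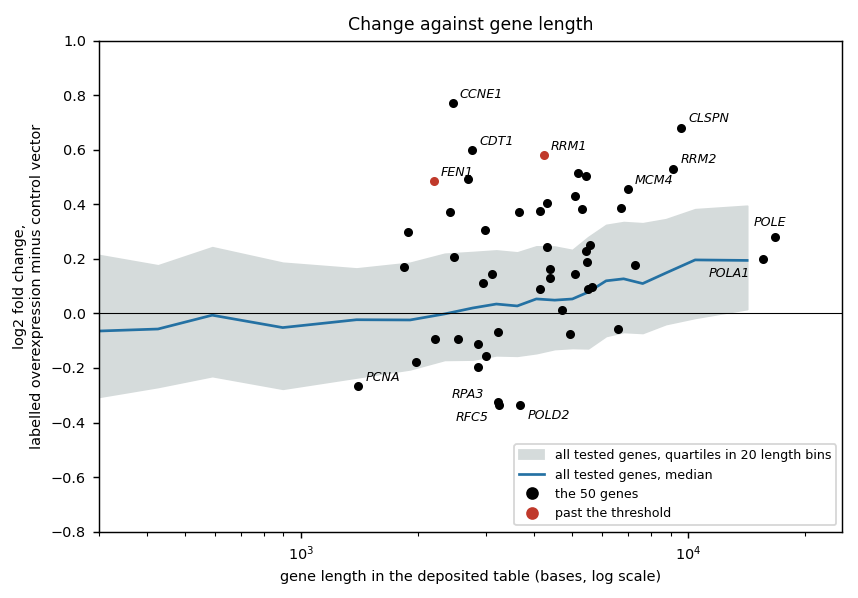
Log2 fold change (y axis, OE-labelled minus stuffer) against gene length in the deposited table (x axis, log scale) for the 50 genes (points, the 2 past the threshold in red), over the median (blue line) and quartiles (grey band) of all tested genes in 20 length bins. The band rises with length, and RRM1 and FEN1 lie above it at 0.58 and 0.48.

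Stuffer replicate 3, which stood apart across the transcriptome, was the highest of the 3 controls in 23 of the 50 genes, 46% against 37.6% of all tested genes, and the lowest in 17. Without it the median of the 50 was 0.24, 36 had values above 0, and 0 passed, with RRM1 at 0.59 (limma-trend adjusted p = 0.0561) and FEN1 at 0.45 (limma-trend adjusted p = 0.0717). Exons of 21 of the 50 genes overlap those of another gene in the table, and in 16 of them that other gene held more than 0.1 times the fragments of the member. EEF1B2P3 and NDUFAF6 lie across the spans of POLA1 and CCNE2 on the other strand and share 0 exon bases with them. Pseudogenes named after 12 of the genes held at most 0.171% of the fragments of their parent.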

How the data were processed

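RNA-seq of 6 SH-SY5Y libraries was used, 3 per group. The authors deposited 1 table of FPKM values per gene, with gene positions and lengths per the file headers. Per the submitters' processing notes, STAR 2.7.9, featureCounts 2.0.1 and GRCh38.p13 were used. Strand settings are not given in the sources used here. The most frequent nonzero value of FPKM times gene length, taken as 1 fragment and then refined, gave each library's depth, 20466583 to 48996425 fragments. Between 44.2% and 49.0% of values were whole fragments (tolerance 0.001), so no count model was the main test.

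Genes at 1 FPKM or more in at least 3 of 6 libraries, 13984 in all, were tested on log2(FPKM + 0.5) with limma-trend (limma 3.58.1, R 4.3.3), without a block, with Benjamini-Hochberg adjustment and a threshold of 0.05. The script was tested on simulated data. The 17 alternatives changed pseudocount, filter, scaling, variance model, length trend, block or libraries. The members and lists were chosen with earlier results of these data known. Values in every library were planned for members past the threshold, the 10 of smallest p, the 12 of largest change and MCM2-7, and promoters for the 2 members of smallest p and the 1 of smallest change. Per-library values of other members, and the overlapping genes NACA, WSB2, INTS8 and RP11-360L9.4, were chosen after values were seen. CDKN2B-AS1, below the filter, was added to the fit for its own value only. The table's gene length equalled the merged exon length for all 60612 genes.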

Additional observations from a re-analysis of the deposited data

How the results depend on the processing

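Of the 50 genes 36 kept their direction under all 17 alternatives, 28 above 0 and 8 below, and 14 changed sign in at least 1; the cause was not tested. Calls among the 50, 2 on the values as deposited, were 0 with no filter, 0 with no variance trend, 4 with a common total, 4 with array weights, 1 with median-of-ratios scaling (RRM1, with FEN1 lost), and 0 without any 1 library. At an unadjusted p under 0.05, 14 (no filter) and 13 (no variance trend) were higher, and 3 and 1 were lower. Their median log2 fold change was 0.2913 with a common total and 0.1224 with the length trend removed. The other replication genes had 0 calls with no filter and with no variance trend, 2 with a common total, 2 with array weights and 0 to 1 without 1 library. The G1/S regulators had 0, 0 and 0 to 1 with no filter, no variance trend and without 1 library. The mitotic genes had 0 with no filter, no variance trend or the length trend removed, 2 with a common total, 2 with array weights and 0 to 1 without 1 library. Over all tested genes, higher calls were 0 with no filter and with no variance trend, 181 with a common total, 149 with array weights, 48 with the length trend removed and 0 to 73 without 1 library. Lower calls were 0 with no filter and with no variance trend, 52 with a common total, 48 with limma-voom and 0 to 51 without 1 library. All genes at an unadjusted p under 0.05, in either direction, numbered 3538 of 33905 with no filter and 2304 of 13984 with no variance trend.

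Same-numbered libraries had deviations correlated at -0.02, 0.11 and 0.12 over 13984 genes. Stuffer replicate 1 correlated best with OE-labelled replicate 3, and stuffer replicates 2 and 3 with their own numbers. Stuffer replicate 2 did so nearly as well with OE-labelled replicate 1 (0.10). No label says that same-numbered libraries share a culture, so the main fit had no block. With the replicate block 3 of the 50 passed, 2 other replication genes, 2 mitotic genes, and 98 higher and 131 lower genes in all.

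Reversed log2 fold changes were as follows. With the length trend removed CDKN2B-AS1 was -0.0667, MCM2 -0.0387 and POLA1 -0.0036. With median-of-ratios scaling MCM2 was -0.0356. With a common total GINS2 was 0.041, POLD1 0.0356, RFC2 0.0189, LIG1 0.0509 and UNG 0.0169, where the median of all tested genes was 0.1548. Leaving out 1 library at a time, log2 fold changes ran over these ranges: ORC1 -0.0332 to 0.2772, MCM2 -0.089 to 0.1131, GINS1 -0.1048 to 0.1954, GINS3 -0.0144 to 0.3002, POLA1 -0.0187 to 0.525, PRIM2 -0.0171 to 0.2131. For the others they were POLD1 -0.2585 to 0.0336, POLE2 -0.1607 to 0.3038, RPA1 -0.0076 to 0.1779, LIG1 -0.1662 to 0.0372, CCNE2 -0.0449 to 0.3877. The reversing libraries were stuffer replicate 1 for ORC1, POLA1, POLD1 and LIG1, stuffer replicate 2 for GINS1, PRIM2, POLD1, POLE2 and CCNE2, stuffer replicate 3 for MCM2, OE-labelled replicate 1 for MCM2 and RPA1, OE-labelled replicate 2 for MCM2, and OE-labelled replicate 3 for GINS3, PRIM2 and CCNE2. Depth limited CCNE1, with 14 to 155 fragments per library, and E2F1, with 90 to 347.5.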

Other observations

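Genes that the table's own annotation places in DNA replication, but outside the 50 and the other lists, gave no call. Of 64 tested, 0 were higher and 0 lower in limma-trend, with a median log2 fold change of 0.10. The groups did not overlap upward in 11, 17.2%, and downward in 4, 6.25%, near the 14.2% and 9.9% of all tested genes.

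Of 168 such genes annotated to DNA repair 1 was called lower, 0.595% against 0.608% of all tested genes, which is the background share. It was RPS3, a ribosomal protein of the small subunit, at 364 ± 15.3 and 267 ± 12.9 FPKM (SD, n = 3 each; limma-trend adjusted p = 0.0451). Of 46 annotated to the G1/S transition 1 was called lower, 2.17% against the same 0.608%. It was RPS6, another protein of the small subunit, at 574 ± 23.7 and 414 ± 31.7 FPKM (SD, n = 3 each; limma-trend adjusted p = 0.0451). Neither gene passed when any 1 library was left out, where limma-trend adjusted p ran from 0.0627 to 0.162 for RPS3 and from 0.0650 to 0.143 for RPS6. With a common FPKM total they did not pass either (0.0628 and 0.0556).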
